A study of Drosophila melanogaster with 6 samples.

Results

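Heparan sulfate proteoglycans (HSPGs) and the enzymes that build their sugar chains were described in leg disc tendon precursors. The 9 genes were chosen by name: the core proteins dally, dlp and Sdc, and the synthesis enzymes ttv, sotv, botv, sfl, sgl and Hs6st. They were 9 of 17411 genes with a deposited level, all 9 were found, and sotv was matched by its gene identifier (FBgn0029175) because the tables list it as Ext2. The 3 core proteins were all called lower in tendon precursors than in the whole disc. So were 12.7% of all 9199 genes tested, and 22.2% of those with transcripts of 3000 to 4000 bases, the range of dally and dlp. The median log2 ratio was -0.95 for the core proteins, against -0.22 for the 6 enzymes and 0.03 for all genes tested. Sdc was the only member that stayed called lower when the trend of the ratios with transcript length was subtracted. sfl, not called before, was then called higher, at the median length of transcripts that run from 1067 to 5772 bases.

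Messenger RNA was sequenced from leg discs of white pupae at 0 h after puparium formation (APF), in 3 libraries of GFP+ cells and 3 libraries of input cells. Both groups came from animals labelled sr-gal4>UASGFP, which the study's methods give as UAS-Lifeactin.GFP with sr-gal4/TM6b, tb, and there was no group without the driver. The driver sr-gal4 is an enhancer trap in stripe (sr), whose product is the key transcription factor of tendon cells, and GFP labels the cells in which it is active. Discs of many pupae were pooled for each sort and dissociated with collagenase and papain. Input cells, called control in the labels, were sorted first and regardless of fluorescence. They therefore hold every cell type of the disc, GFP+ cells included, and the order of sorting cannot be told apart from the group.

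HSPGs are proteins of the cell surface and matrix that carry long chains of heparan sulfate. The chains bind secreted signals such as Wingless, Hedgehog, the BMP ligand Dpp and FGFs, and the glypicans Dally and Dlp are known in imaginal discs for shaping how far these signals spread. Chains start on a short linker sugar, are lengthened by exostosin polymerases and are then modified with sulfate, so every core protein depends on the same enzymes.

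The deposited levels are FPKM, fragments scaled to transcript length and sequencing depth, a scale meant for setting genes of different length side by side within a group. The ratio between the groups still fell with transcript length, as described below. Shares of a pool, levels of pairs and orders of levels were not adjusted for this, so their differences between groups include any effect of length. Each group has 1 value per gene with a lower and an upper confidence bound, and values of single libraries are not analysed here. No SD and no test between libraries could therefore be given, and what the bounds cover is not stated. A gene was called higher or lower in GFP+ cells where the ratio of FPKM was at least 1.5 in either direction and the bounds of the groups did not overlap. The rule was applied to genes with an FPKM of at least 1 in either group. Intervals of a ratio run from the lower bound of one value over the upper bound of the other to the reverse. The mean normalized counts over all libraries summed to 31652166 over the genes in both tables.

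Of the 9 members, 4 were called lower (dally, dlp, Sdc and ttv), 0 were called higher and 5 were not called. Among all 9199 genes tested, 12.7% were called lower and 7.99% were called higher. The ratio was below 1 for 7 members and above 1 for sfl and sgl. All 9 members passed the filter on low values, and their FPKM ran from 8.88 to 73.9 in GFP+ cells and from 15.2 to 183 in input cells. Fewer cells that express a gene and less RNA of it per cell cannot be told apart in such bulk samples.

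**Figure D1:**
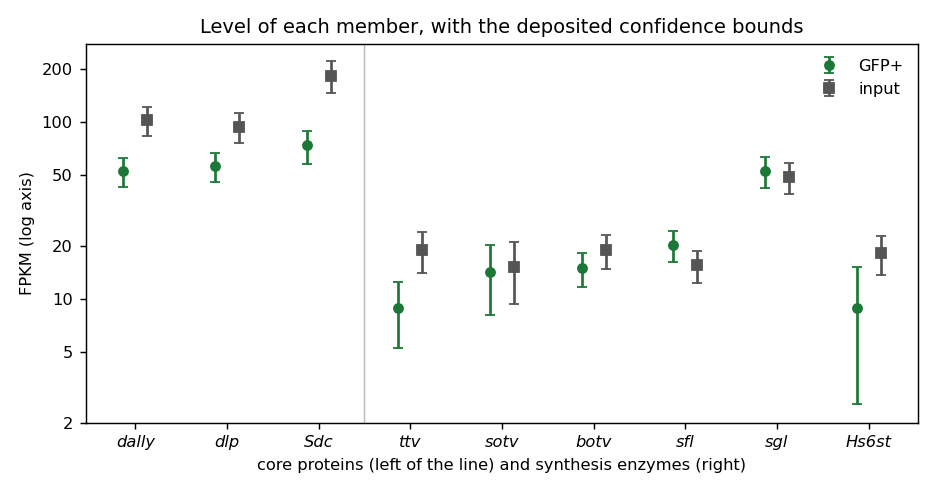
FPKM on a log axis of the 3 core proteins and the 6 synthesis enzymes in GFP+ cells (circles) and input cells (squares); bars are the deposited confidence bounds. The bounds are apart for dally, dlp, Sdc and ttv, with GFP+ cells lower, and overlap for the other 5 genes.

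The core protein Sdc, the only syndecan of the fly and a protein that spans the membrane, had the highest level of all members in both groups. In GFP+ cells its bounds overlapped those of dlp, sgl and dally. Its FPKM was 73.9 in GFP+ cells (bounds 58.3 to 89.5) and 183 in input cells (bounds 145 to 222). The ratio was 0.403, with an interval of 0.263 to 0.615, and 7.02% of the genes tested had a ratio below it. Sdc lies on chromosome 2R from 21392402 to 21481176 (dm6, minus strand) and has 9 annotated transcripts with a median length of 2482 bases. Its exons share 38 bases, or 0.904% of their length, with Acox57D-d on the other strand, whose FPKM was 0.421 in GFP+ cells against 0.792 in the input.

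dally, a glypican held at the membrane by a lipid anchor, had an FPKM of 53.1 in GFP+ cells (bounds 43.0 to 63.1) and 102 in input cells (bounds 83.2 to 122). The ratio was 0.518, with an interval of 0.354 to 0.758. dally lies on chromosome 3L from 8827505 to 8891192 (plus strand), and its 2 transcripts have a median length of 3964 bases. dlp, the other glypican of the fly, had an FPKM of 56.5 in GFP+ cells (bounds 45.9 to 67.2) and 94.4 in input cells (bounds 76.8 to 112). Its ratio was 0.599, with an interval of 0.409 to 0.876, and was the closest of the 4 lower members to the limit of the call, a ratio of 0.667. dlp lies on chromosome 3L from 14632601 to 14671609 (plus strand). The exons of both glypicans overlap no other gene in the annotation used.

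Although all 3 core proteins were lower, each was among the more abundant transcripts of the GFP+ cells. Their levels were above those of 79.7% (dally), 80.8% (dlp) and 84.9% (Sdc) of the genes tested in GFP+ cells. The same shares in input cells were 89.6%, 88.7% and 94.5%. The summed FPKM of the core proteins was 183 in GFP+ cells against 380 in the input, a ratio of 0.483.

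The make-up of this core protein pool did not separate the groups. Sdc made up 40.3% of the summed FPKM in GFP+ cells and 48.3% in input cells. dally made up 28.9% and 26.9%, and dlp made up 30.8% and 24.8%. The level of dally relative to dlp was 0.938 in GFP+ cells (interval 0.640 to 1.37) and 1.08 in input cells (interval 0.742 to 1.58). The level of Sdc relative to both glypicans together was 0.674 (interval 0.447 to 1.01) and 0.932 (interval 0.623 to 1.39). Both pairs of intervals overlapped, so no shift within the pool could be resolved with these bounds. Mean normalized counts per kilobase over all 6 libraries, from the other deposited table, gave shares of 48.3% for Sdc, 26.2% for dally and 25.4% for dlp.

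Among the polymerases, ttv was called lower and its partners were not. ttv is the fly homolog of the exostosin EXT1 and acts in a complex with Sotv, the homolog of EXT2. The FPKM of ttv was 8.89 in GFP+ cells (bounds 5.27 to 12.5) and 19.0 in input cells (bounds 14.1 to 23.9), a ratio of 0.468 with an interval of 0.220 to 0.886. sotv had an FPKM of 14.2 in GFP+ cells (bounds 8.08 to 20.2) and 15.2 in input cells (bounds 9.39 to 20.9). Its ratio was 0.934, and the interval of 0.387 to 2.15 leaves room for a change of the size seen for ttv. botv, an exostosin-like enzyme that starts the chain on the linker, had an FPKM of 15.0 in GFP+ cells (bounds 11.6 to 18.3) and 18.9 in input cells (bounds 14.9 to 23.0). The ratio of botv was 0.792, with an interval of 0.507 to 1.23.

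The balance between ttv and its partners was not resolved. The level of ttv relative to sotv was 0.628 in GFP+ cells (interval 0.260 to 1.55) and 1.25 in input cells (interval 0.676 to 2.54). Relative to botv it was 0.593 (interval 0.287 to 1.07) and 1.00 (interval 0.615 to 1.61). sotv shares 3 exon bases (0.111%) with the oppositely oriented CysRS. The sources used here do not say that strand was used in counting.

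The sulfating enzymes differed in the direction of their ratios. sfl encodes the enzyme that removes acetyl groups from the glucosamine units of the chain and replaces them with sulfate, and later sulfation depends on it. Its FPKM was 20.1 in GFP+ cells (bounds 16.2 to 24.1) and 15.6 in input cells (bounds 12.4 to 18.8), which gives the highest ratio of the members, 1.29 (interval 0.860 to 1.95). The bounds overlapped, and sfl was not called. Hs6st, which adds sulfate to the glucosamine units at a later step, had an FPKM of 8.88 in GFP+ cells (bounds 2.57 to 15.2) and 18.2 in input cells (bounds 13.7 to 22.7). The ratio of Hs6st was 0.488, as low as that of dally and ttv, but its interval ran from 0.113 to 1.11. The bounds of Hs6st in GFP+ cells spanned 71.0% of the value on either side, against 18.9% to 42.9% for the other 8 members, so it was not called.

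sgl, which encodes the UDP-glucose dehydrogenase that makes the glucuronic acid precursor of all glycosaminoglycan chains, was not called. Its FPKM was 53.1 in GFP+ cells (bounds 42.3 to 63.8) and 49.2 in input cells (bounds 39.4 to 59.1). The ratio was 1.08, with an interval of 0.717 to 1.62. sgl shares 33 exon bases (1.45%) with Surf1 on the other strand, which had an FPKM of 13.1 and 7.35.

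**Figure D2:**
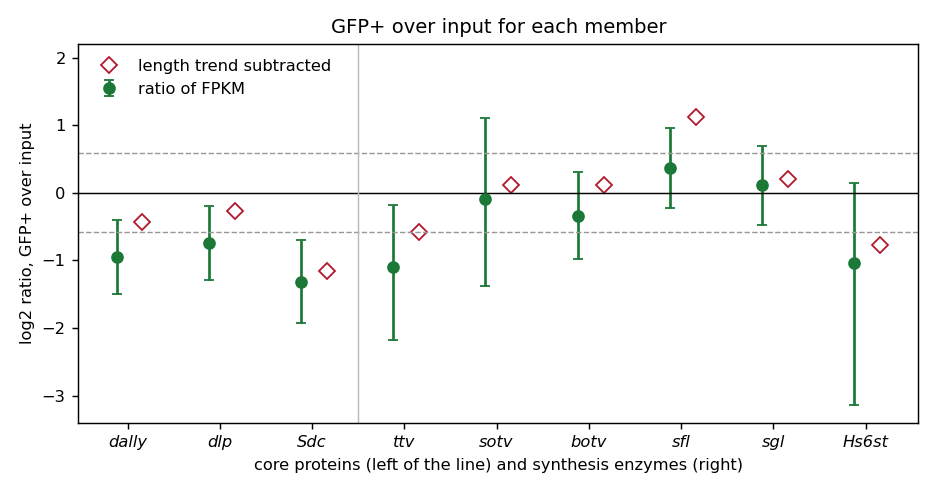
Log2 ratio of FPKM, GFP+ over input, for each member (circles, with the interval from the deposited bounds), and the same ratio after the trend with transcript length was subtracted (diamonds). Dashed lines mark a ratio of 1.5 in either direction; after the subtraction, of the 4 genes called lower only Sdc stays called, and sfl lies above the upper line.

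Levels of the core proteins were also set against those of the enzymes within each group. The summed FPKM of the core proteins was 9.11 times that of sfl in GFP+ cells (interval 6.10 to 13.6) and 24.4 times in input cells (interval 16.3 to 36.7), and these intervals did not overlap. However, sfl is the enzyme with the highest ratio in these same data (1.29), so this pair does not stand for the enzymes as a set. Against the sum of the 3 polymerases, the core proteins stood at 4.82 (interval 2.88 to 8.79) and 7.16 (interval 4.51 to 11.9), with overlapping intervals. The level of sfl relative to ttv was 2.26 in GFP+ cells (interval 1.29 to 4.58) and 0.820 in input cells (interval 0.519 to 1.33), which overlap narrowly. Relative to Hs6st, sfl stood at 2.27 (interval 1.06 to 9.38) and 0.857 (interval 0.547 to 1.37). The summed FPKM of the 6 enzymes was 120 in GFP+ cells against 136 in the input, a ratio of 0.883. No interval was computed for the core proteins against all 6 enzymes.

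The order of the members' levels differed between the groups. In GFP+ cells the order was Sdc, dlp, sgl, dally, sfl, botv, sotv, ttv and Hs6st, and neighbours had overlapping bounds everywhere except between dally and sfl. In input cells it was Sdc, dally, dlp, sgl, ttv, botv, Hs6st, sfl and sotv. There, the bounds were apart between Sdc and dally, between dlp and sgl, and between sgl and ttv. sgl thus lay below all core proteins in the input. In GFP+ cells sgl (53.09) and dally (53.05) had nearly the same level, so their order was not resolved. The trend of the log2 ratio with transcript length stood at -0.09 for sgl and -0.51 for dally, and these orders were not adjusted for it. sfl, eighth of 9 in the input, led the 5 enzymes of lower level in GFP+ cells.

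Genes with long transcripts had lower ratios in these data, and all 9 members had a median transcript length of over 2000 bases. Spearman's rho between log2 ratio and median length of the transcripts was -0.43 across 8977 genes, a description over genes that share the same libraries. Of the 1819 genes with transcripts of 2000 to 3000 bases, 10.8% were called lower, and so were 22.2% of 1015 genes of 3000 to 4000 bases. dally (3964 bases), dlp (3760), ttv (3994) and botv (3608) fall in the latter range. Sdc (2482 bases), sotv (2694), sgl (2275) and Hs6st (2879) fall in the former. sfl, with a median of 5735 bases, lies among 851 genes of 4000 to 6000 bases, of which 41.6% were called lower, and yet its ratio was above 1.

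A smoothed trend of the log2 ratio with length was subtracted from each gene. The log2 ratio of Sdc then moved from -1.31 to -1.16 and stayed called lower. Those of dally (-0.95 to -0.43), dlp (-0.74 to -0.26) and ttv (-1.10 to -0.58) lost the call. ttv came closest to keeping it, with a ratio of 0.670 against the limit of 0.667, but its bounds then overlapped as well. sfl went from 0.37 to 1.12, a ratio of 2.17, and was called higher. The 4 transcripts of sfl run from 1067 to 5772 bases. Near the shortest of these lengths the trend was positive (0.27), and no setting used that length, so this call holds for the longer transcripts only. Hs6st stood at -0.77, sotv at 0.12, botv at 0.11 and sgl at 0.20, none of them called. The members then counted 1 lower and 1 higher of 9. Of the 9118 genes tested that had a transcript length, 485 (5.32%) were then lower and 640 (7.02%) higher, and 81 genes tested had none. The median log2 ratio became -0.43 for the core proteins and 0.11 for the enzymes, beside 0.05 for all genes. The place of ttv depended on the length used. With the trend taken on the longest transcript, a setting chosen after seeing the data, ttv stood at -0.28, dally at -0.42 and dlp at -0.35. Sdc then stood at -0.87 in place of -1.16 and stayed called lower. Whether the trend arises in the cells or in the preparation of the RNA was not tested.

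**Figure D3:**
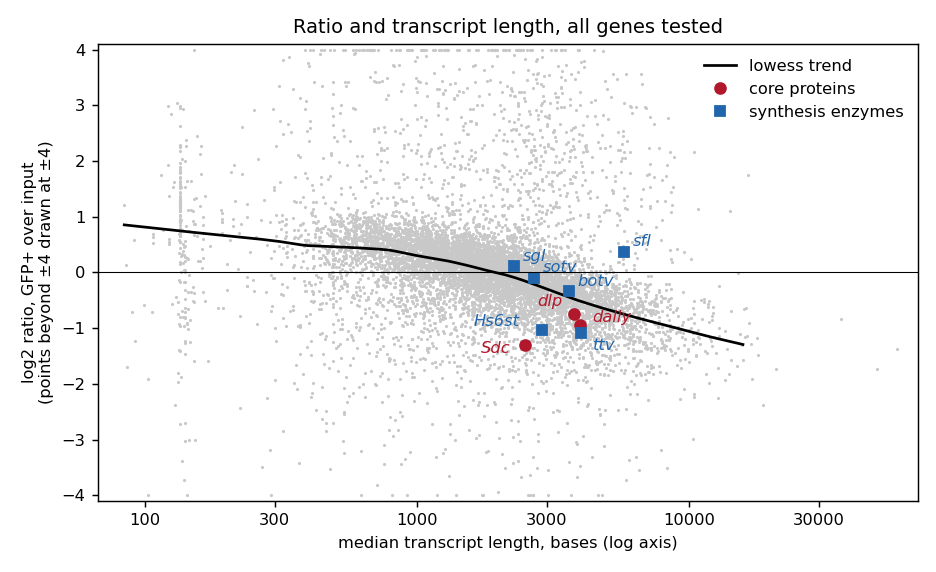
Log2 ratio of FPKM, GFP+ over input, against the median transcript length in bases (log axis) for the 8977 genes tested with a length and a level above 0 in both groups (grey), the smoothed trend (line), core proteins (circles) and enzymes (squares). dlp, dally and ttv lie below the line by 0.26, 0.43 and 0.58, Sdc lies below it by 1.16 at 2482 bases, and sfl lies above it by 1.12 at 5735 bases.

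Most other genes that supply or attach the chains were not called. Of 9 genes for precursors and linker, 0 were called higher and 1 lower (all genes: 7.99% and 12.7%), with a median log2 ratio of -0.04. The lower one was Papss, the synthetase of the sulfate donor, with an FPKM of 20.0 in GFP+ cells (bounds 15.5 to 24.5) and 34.7 in input cells (bounds 27.7 to 41.7), and it stayed called without the length trend. The xylosyltransferase oxt, the linker enzymes beta4GalT7, beta3GalTII and GlcAT-I, the transporters frc, sll and Papst2, and UGP had ratios from 0.840 to 1.45. Of 5 other modifiers of the chain, 4 passed the filter and 0 were called. The epimerase Hsepi had a ratio of 0.738, Hs2st had 0.810, and Sulf1, which removes sulfate outside the cell, had 0.602 with overlapping bounds. Of the sulfotransferases Hs3st-A and Hs3st-B, the former was under the filter and the latter had an FPKM of 2.26 in GFP+ cells (bounds 1.04 to 3.48) and 0.637 in input cells (bounds 0.0239 to 1.25).

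Among 6 genes for other proteoglycans, release and a receptor, 1 was called higher and 4 lower (all genes: 7.99% and 12.7%). The one higher gene was Cow, a secreted HSPG known to bind Wingless, with an FPKM of 9.78 in GFP+ cells (bounds 5.97 to 13.6) and 1.94 in input cells (bounds 0.549 to 3.33), a ratio of 5.05. Its direction was thus opposite to that of the 3 core proteins. trol, the basement membrane HSPG perlecan, was lower, at 12.7 (bounds 10.2 to 15.1) and 60.0 (bounds 48.3 to 71.8), a ratio of 0.211. Also lower were the proteoglycan gene wdp (ratio 0.593), Notum, a secreted hydrolase that acts with glypicans on Wingless (0.452), and Lar, a phosphatase and receptor of Sdc and Dlp (0.556). The matrix protease Mmp2 had bounds that were apart, at 46.5 (bounds 37.7 to 55.3) and 31.1 (bounds 25.0 to 37.1), but missed the fold. With the length trend subtracted, Cow and Mmp2 were called higher and trol lower, while wdp, Notum and Lar were not called.

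**Figure D4:**
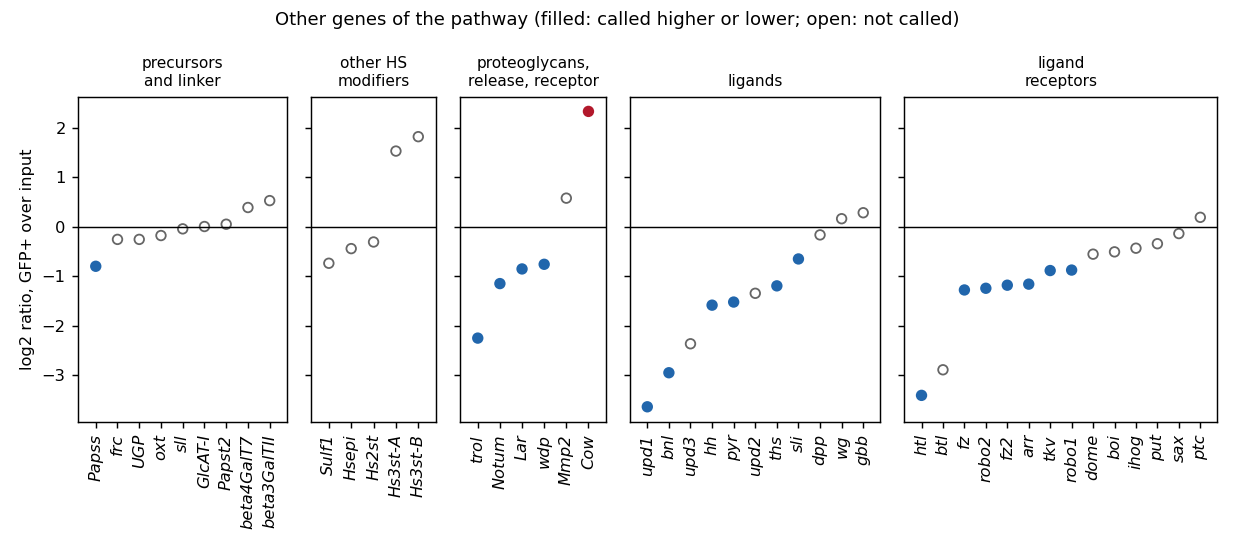
Log2 ratio of FPKM, GFP+ over input, of the other 45 genes of the pathway in 5 lists; filled points were called higher or lower, open points were not called, and Hs3st-A and btl were under the filter. Cow is the only filled point above 0, and 18 filled points lie below it.

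Secreted signals that bind heparan sulfate were taken as a list of 11, of which 0 were called higher and 6 lower (all genes: 7.99% and 12.7%), with a median log2 ratio of -1.34. hh was lower, at 17.5 in GFP+ cells against 52.3 in the input, and so were the FGF genes bnl (0.311 and 2.40), pyr (3.94 and 11.3) and ths (4.14 and 9.46). upd1, a ligand of the JAK/STAT pathway, was lower at 0.290 and 3.60, and the guidance gene sli at 43.1 and 67.5. wg, dpp and gbb were not called, with ratios of 1.12, 0.895 and 1.22. With the length trend subtracted, hh, bnl, pyr and upd1 stayed lower, ths and sli were not called, and the median was -1.16. Of 14 receptors of such ligands, 13 passed the filter, 0 were called higher and 7 lower (all genes: 7.99% and 12.7%), with a median log2 ratio of -0.87. The lower ones were fz (ratio 0.414), fz2 (0.442), arr (0.449), tkv (0.543), htl (0.0945), robo1 (0.547) and robo2 (0.424). The median transcripts of arr, robo1 and robo2 are over 6000 bases long, a range in which 62.8% of 430 genes were called lower. The Hedgehog receptor ptc, with a ratio of 1.14, and its co-receptors ihog and boi, with 0.743 and 0.706, were not called. With the length trend subtracted, fz, fz2 and htl stayed lower (all genes: 5.32% lower and 7.02% higher), fz2 at the very limit of the fold. arr, tkv, robo1 and robo2 then lost the call, ptc was called higher with a ratio of 1.89, and the median was -0.12. Over all 45 pathway genes, 43 passed the filter, 1 was called higher and 18 lower (all genes: 7.99% and 12.7%), with a median log2 ratio of -0.55. Without the trend 3 were higher and 9 lower (all genes: 7.02% and 5.32%), and the median was -0.11.

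Markers of cell types moved with the sort beside these values. Of all genes tested, 7.99% were higher and 12.7% lower. sr, which carries the driver, had an FPKM of 54.5 in GFP+ cells against 6.59 in the input, and of 6 tendon markers 3 were higher (sr, Tsp and Lrt) and 2 lower (slow and how). Of 8 myoblast markers 7 passed the filter and 6 were lower, and their summed FPKM was 20.7 against 157; twi stood at 2.56 and 29.0, and Him at 1.97 and 36.9. The FGF receptor htl is both a myoblast marker and a member of the receptor list. Of 6 epithelial markers, shg, crb and sdt were lower (ratios 0.507 to 0.561) and 0 were higher, with sums of 1043 and 1048, and 0 were called with the length trend subtracted. Of 6 hemocyte markers, 4 had an FPKM under 1 in both groups, and eater was listed at 0 in GFP+ cells. Among 3 fat body markers Fbp1 was higher at 3.78 and 0.0521. Fbp2 (11.4 and 0.0763) and Lsp2 (9.62 and 0.0493) had higher ratios but were not called, as their lower bounds in GFP+ cells were 0. Among 5 neuronal markers nSyb and Syt1 were higher and futsch lower, while elav (10.1 and 18.6) and brp were not called. Of both tracheal markers trh was lower, at 7.77 and 24.2, also with the length trend subtracted, and btl was under the filter. Of 3 glial markers 0 were called, and the defining marker repo stood at 0.648 and 1.70. The part of these cell types in the levels of the HSPG genes was not tested.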

How the data were processed

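Reads were trimmed with Trimmomatic 0.32 and aligned to dm6 with Bowtie2 2.1.0, per the submitters' processing notes, which also list Cufflinks 2.2.1 and DESeq2 1.2.8. The annotation release and the counting program are not given in the sources used here. The authors deposited 1 FPKM per gene and group together with its confidence bounds, in a Cufflinks table, although the methods attribute FPKM to DESeq2. A further deposited table gave mean normalized counts (signal values), which were used for depth. Its columns of fold change, standard error, statistic and p-values are the authors' own comparison and were not used. The libraries were made from oligo-dT primed mRNA and read from a single end. The precision of each value is that of the deposited bounds, whose confidence level is not stated, and the depth of single libraries is not analysed here.

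Samples were grouped by their titles. The design allowed for a test on values per library, but the tables hold values per group, so the call rule stood in its place. Members, lists and rules were chosen with earlier results of these data known. All 9 members are named with their values. Of each pathway list the called genes are named, and of the marker lists the counts and defining markers; wg, dpp, gbb, ptc, ihog, boi, Mmp2, Hs3st-B and other uncalled genes were named after their values were seen. The lowess trend (span 0.3, statsmodels 0.14.6) used the median transcript length in the Ensembl 115 annotation, which is also on dm6. Of the gene identifiers, 17138 matched directly, 121 matched through their symbol and 152 did not match. Ratios were computed in Python 3.11.15 (numpy 2.4.6, scipy 1.17.1, pandas 2.3.3) without a pseudocount, and the call step was tested on simulated data. The simulated noise was scaled from the deposited bounds, so the test cannot show what those bounds cover. Its first criterion, on the number of changed genes recovered, was narrowly missed. It was then replaced by criteria that judged recovery only among genes with an input FPKM of at least 10. Alternatives were another fold, overlap of bounds allowed, no fold, other filters, a pseudocount of 1, other scalings and removal of the length trend. Genes without an OK status in both groups (10) were left out. Figures were drawn with matplotlib 3.10.9.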

Additional observations from a re-analysis of the deposited data

How the results depend on the processing

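The count of members called lower was 4, and it was 2 with a fold of 2, 5 with overlapping bounds allowed, 6 with FPKM rescaled to equal sums and 1 with the length trend removed (span 0.3 or 0.6, or, chosen after seeing the data, on the longest transcript). Under these length settings 1 member was called higher in place of 0. Of all 9199 genes, 12.7% were called lower, but 6.78% with a fold of 2, 22.0% with overlap allowed and 24.0% with equal sums. With the length trend removed, 5.27% were lower, or 5.25% with a span of 0.6 and 4.72% on the longest transcript. The core proteins called lower were 3, and 1 with a fold of 2 and with each length setting. The enzymes called lower were 1, but 2 with overlapping bounds allowed, 3 with FPKM rescaled to equal sums and 0 with each length setting. Pathway genes called higher were 1, but 2 with overlapping bounds allowed or with bounds apart at any fold, 0 with an FPKM of at least 10, and 3 with each length setting. Pathway genes called lower were 18, but 12 with a fold of 2, 21 with overlap allowed, 26 with equal sums, and 9 (median length) or 8 (longest transcript) without the trend. No log2 ratio of a member called in the main setting changed sign. The ratios of sfl (-0.06) and sgl (-0.32), not called in the main setting, were negative with equal sums. That of sfl was thus negative there but called higher (1.12) without the length trend. The ratios of sotv and botv were positive (0.12 and 0.11) without the length trend.

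Over all genes, 735 were higher and 1168 lower (38.6% of calls higher). These counts were 1793 and 2025 with overlap allowed, 492 and 624 with a fold of 2, and 438 and 1040 with an FPKM of at least 10, which left 6391 genes. With equal sums they were 399 and 2204 (15.3% higher), where the median log2 ratio of all genes shifted from 0.03 to -0.40. Without the length trend they were 640 and 485 (56.9% higher), or 653 and 483 with a span of 0.6 (57.5%) and 662 and 434 on the longest transcript (60.4%). No paired analysis was possible because the columns hold group values without library numbers, and leaving out single libraries was not run for the same reason. sotv and Hs6st had the lowest mean normalized counts of the members (992 and 1158) and the widest bounds relative to their value in GFP+ cells; the part of depth in this was not tested.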

Other observations

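Of 5564 genes with an FPKM of at least 10 in both groups, 128 had a mean normalized count of 0 in the other deposited table. They include frc, the UDP-sugar transporter of the precursor list, whose FPKM was 28.6 in GFP+ cells against 34.1 in the input. All 9 HSPG members had counts, from 992 for sotv to 11243 for Sdc.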
